A study of Homo sapiens with 8 samples.

Results

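Lymphocytes reach, stay in and leave lymphoid tissue through a small set of surface receptors, and 9 such genes were followed here: CCR7, CXCR4, CXCR5, CCR6, ACKR3, S1PR1, GPR183, CD69 and the transcription factor KLF2. The members were chosen by name, and every probe set whose only platform gene symbol was a member was taken, which gave 15 probe sets for the 9 genes, out of 54675 probe sets on the array. The cells were Reh, an established line of B-cell precursors from a human acute lymphoblastic leukemia, although the malignancy label reads non-Hodgkin lymphoma. RNA from 8 cultures was hybridized to Affymetrix U133 Plus 2.0 arrays, 2 arrays in each of 4 groups that differed in transfection. Combined cells, labelled as both in the plots, received an shRNA against CBFA2T3, a transcriptional corepressor of the ETO family, together with IKKβ(EE), a constitutively active IκB kinase β, which frees NF-κB to enter the nucleus. IKKβ(EE) cells received that construct alone, and shRNA cells received the CBFA2T3 shRNA alone. Control cells received a control shRNA, and their sample titles call them mock. The labels describe knockdown and IKKβ(EE) expression as transient and the arrays as biological duplicates, and they leave unsaid whether the IKKβ(EE) group was given a control shRNA too. Results rest on a single line, and a change in all cells cannot be told apart from a change in a share of the transfected cells.

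Values are the authors' log2 probe set intensities. A level under log2 5 is treated as near background, and a probe set was tested when it reached log2 5 on at least 2 arrays, as 24481 did. Of the 15 member probe sets 8 passed, and they represent 6 of the 9 genes. Differences are given on the log2 scale with the standard error (SE) of the limma fit over all 8 arrays, and a probe set is called at a Benjamini-Hochberg adjusted p under 0.05 over all tested probe sets. A value "with the replicate block" comes from the fit that pairs arrays of equal replicate number.

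The targeted genes were checked first. CBFA2T3 averaged 8.03 ± 0.28 in combined cells, 8.90 ± 0.01 with IKKβ(EE), 8.26 ± 0.21 with the CBFA2T3 shRNA and 9.26 ± 0.05 in control cells (log2, SD, n = 2 each), and it fell by 1.23 ± 0.16 in combined cells against control (adjusted p = 0.00938), with -0.999 ± 0.165 for the shRNA alone (adjusted p = 0.0518, or 0.0100 with the replicate block). Combined cells against IKKβ(EE) cells gave -0.87 ± 0.16 (adjusted p = 0.104, or 0.0255 with the block). Of 3 tested IKBKB probe sets 1 was called, and it averaged 11.71 ± 0.37 in combined cells and 10.62 ± 0.32 with IKKβ(EE), against 4.02 ± 0.59 with the CBFA2T3 shRNA and 3.996 ± 0.034 in control cells. The other two differed from control by 0.09 and 0.38 in combined cells and by 0.32 and 0.26 with IKKβ(EE), and were not called with or without the block. Of 10 measured B-cell precursor markers 9 averaged log2 5 or more, among them PAX5, EBF1, CD79A and DNTT, while VPREB1 stayed at 3.14 to 3.39 in the group means. Their summed level lay between 14.89 and 15.11 in combined cells, at 15.25 with IKKβ(EE), between 15.09 and 15.17 with the CBFA2T3 shRNA, and between 15.22 and 15.27 in control cells. This sum was thus lower in both groups with the shRNA than in control cells without overlap. Of single tested probe sets 30.2% in combined cells and 24% in shRNA cells lay below control in this way. The sum was taken on unlogged intensities, so the brightest genes weigh most. DNTT, the brightest, averaged 13.27 in combined cells and 13.26 with the shRNA, against 13.73 in control cells. Not all markers fell: with the shRNA alone CD22, CD24, IGLL1 and PAX5 averaged above control. Of 9 T and NK cell markers 3 averaged log2 5 or more (CD5, NCAM1 and NKG7), and CD3D, CD3E and CD3G were all under it. Their summed level lay between 7.71 and 7.73 in combined cells, 7.61 and 7.62 with IKKβ(EE), 7.69 and 7.82 with the CBFA2T3 shRNA, and 7.60 and 7.79 in control cells (log2). NKG7 averaged 5.53 in combined cells and 5.56 with the shRNA, against 4.64 both with IKKβ(EE) and in control cells. CD5 and NCAM1 averaged below control in both groups with the shRNA. Of 8 myeloid and dendritic markers 3 averaged log2 5 or more (CD1C, CSF1R and ITGAM), and CD14 and LYZ stayed under it. Their summed level lay between 7.61 and 7.85 in combined cells, 7.52 and 7.94 with IKKβ(EE), at 7.81 with the CBFA2T3 shRNA and at 7.53 in control cells. The myeloid sum was thus higher in both groups with the shRNA than in control cells without overlap. Among single tested probe sets 25.5% in combined cells and 25.9% in shRNA cells lay above control in this way. The part of these marker levels in the results was not tested.

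Chemokine receptors are G protein-coupled receptors that steer cells along gradients of secreted ligands. In lymphoid organs CCR7 draws cells to the T-cell zone, CXCR5 to the follicle, and GPR183 to the follicle's edge, while CXCR4 holds B-cell precursors in the bone marrow near CXCL12. Exit into lymph and blood depends on S1PR1, which senses sphingosine-1-phosphate, and CD69 opposes that exit by pulling S1PR1 off the surface.

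In combined cells CCR7, CD69 and GPR183 rose and ACKR3 fell against control, while CXCR4 differed little in any group and CXCR5, CCR6 and S1PR1 stayed under log2 5 on every array. Called member probe sets numbered 3 higher and 1 lower of 8 tested, against 4.68% and 3.75% of all tested probe sets. CCR7 and GPR183 passed the floor only through arrays with IKKβ(EE), so this count is a description and lends no weight to the list. The median difference of the 8 was 0.20, and over all tested probe sets it was -0.03. With IKKβ(EE) alone 1 of 8 was called, CCR7 (2 with the replicate block), while 0.221% of all tested probe sets were called higher (2.96% with the block). With the CBFA2T3 shRNA alone 1 of 8 was called, ACKR3, and it was lower, as were 0.396% of all tested probe sets. With the block 2 more were called higher there, CD69 and KLF2 (3.98% of all). In combined cells against IKKβ(EE) alone 0 of 8 were called, against 0.143% of all tested probe sets. There 3 of 8 had an unadjusted limma p under 0.05, as did 3621 of all 24481, and 1 was called higher with the block, CCR7 (2.18% of all). In combined cells against shRNA cells 1 was called, CCR7 (0.821% of all higher), and with the block 3 higher and 1 lower (3.64% and 1.44% of all). The interaction had 0 calls with and without the block, against 0.0123% of all, and 2 of 8 had an unadjusted limma p under 0.05, as did 531 of all 24481. These shares move with single arrays: the 2064 probe sets called in combined cells against control became 81 to 3583 when 1 array was left out, and the 56 with IKKβ(EE) alone became 5 to 200.

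**Figure D1:**
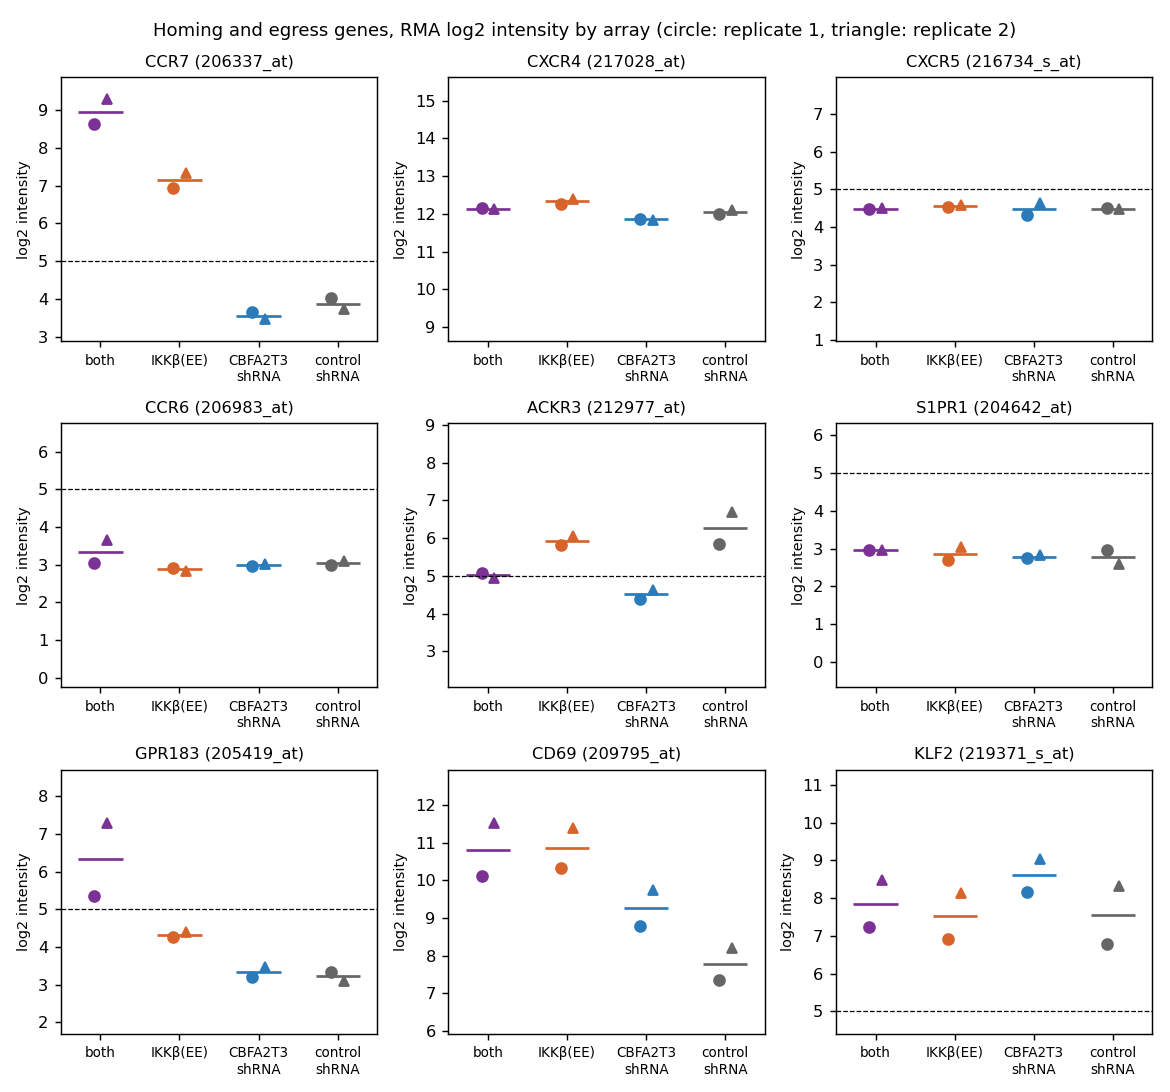
Log2 intensity of the probe set with the highest mean of each of the 9 genes, by group; circles are replicate 1, triangles replicate 2, bars the mean of 2 arrays, and the dashed line log2 5. Each panel spans 7 log2 units around its own middle, so heights can be compared within a gene and not between genes. CCR7 stands at 8.62 and 9.29 in combined cells, against 4.03 and 3.72 in control cells, and CXCR5, CCR6 and S1PR1 lie under the line on all arrays.

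CCR7, the receptor for CCL19 and CCL21, had log2 levels of 8.62 and 9.29 in combined cells, 6.95 and 7.33 with IKKβ(EE), 3.64 and 3.47 with the CBFA2T3 shRNA, and 4.03 and 3.72 in control cells. The 4 groups did not overlap on any pair of arrays: combined cells were highest, cells with IKKβ(EE) next, and control cells and shRNA cells lay near background. CCR7 rose by 5.08 ± 0.24 in combined cells against control (33.8-fold, adjusted p = 0.000185) and by 3.26 ± 0.24 with IKKβ(EE) alone (9.60-fold, adjusted p = 0.00458). Since the control level is near background, these folds understate any change from a lower true level. The CBFA2T3 shRNA alone gave a difference of -0.32 ± 0.24 (95% confidence interval -0.88 to 0.24, adjusted p = 0.576). Without control replicate 1 or 2 the call with IKKβ(EE) alone was lost (adjusted p = 0.0660 and 0.0807).

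In the presence of IKKβ(EE), adding the CBFA2T3 shRNA went with a further CCR7 difference of 1.82 ± 0.24, or 3.52-fold (95% confidence interval 1.26 to 2.37). It missed the threshold at an adjusted p of 0.0541 and passed it with the replicate block (0.0156), where 2.18% of all tested probe sets were called higher in combined cells than with IKKβ(EE). The difference was 1.67 between the arrays numbered 1 and 1.96 between those numbered 2. It was called under 5 of the 16 alternatives with a test, over which it ranged from 1.49 to 2.15. Between the same groups the called IKBKB probe set differed by 1.09 ± 0.30 (adjusted p = 0.171, or 0.0714 with the block), and its part in the CCR7 difference was not tested. For CCR7 the interaction, meaning the combined effect less the sum of the 2 single ones, was 2.13 ± 0.34 (adjusted p = 0.563, or 0.208 with the block). In combined cells against shRNA cells CCR7 rose by 5.40 ± 0.24 (adjusted p = 0.000164).

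CXCR5 and CCR6, the receptors for CXCL13 and CCL20, showed no level above background. On its 2 probe sets CXCR5 ranged from 3.36 to 4.62 over the 8 arrays. CCR6 lay between 2.84 and 3.65, with its highest value in replicate 2 of combined cells. When the floor was dropped, the 7 member probe sets under log2 5 had a smallest limma adjusted p of 0.0864 over the 6 comparisons.

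CXCR4, the CXCL12 receptor, had 3 tested probe sets that moved alike. On the brightest the levels were 12.16 and 12.13 in combined cells, 12.26 and 12.40 with IKKβ(EE), 11.87 and 11.85 with the CBFA2T3 shRNA, and 11.99 and 12.11 in control cells. Cells with IKKβ(EE) were highest and cells with the shRNA lowest, and the whole span over 8 arrays was 0.56. With IKKβ(EE) alone the difference from control was 0.28 ± 0.12 on this probe set (95% confidence interval 0.01 to 0.55, adjusted p = 0.496). On the other two it was 0.23 ± 0.11 and 0.22 ± 0.11. On all 3 probe sets the arrays with IKKβ(EE) alone lay above the control arrays without overlap, as did 18.9% of all tested probe sets, and the shRNA arrays lay below them on all 3, as did 24% of all. CXCR4 was not called in any of the 6 comparisons by limma with or without the block. On the brightest probe set 2 comparisons had an unadjusted p under 0.05, IKKβ(EE) against control and combined cells against shRNA cells. Over the 3 probe sets the smallest adjusted p was 0.308, or 0.141 with the block. The intervals on these probe sets exclude a change of 1 log2 unit in each comparison between 2 groups.

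ACKR3, an atypical receptor that binds CXCL12 and CXCL11 and removes them without classical G protein signalling, was lower wherever the CBFA2T3 shRNA was present. Its levels on the 1 probe set above the floor were 5.08 and 4.95 in combined cells, 5.81 and 6.06 with IKKβ(EE), 4.40 and 4.63 with the CBFA2T3 shRNA, and 5.84 and 6.69 in control cells. No array with the shRNA reached the lowest array without it, and the control arrays differed from each other by 0.85. ACKR3 fell by 1.75 ± 0.26 with the shRNA alone (29.7% of control, adjusted p = 0.0441) and by 1.25 ± 0.26 in combined cells (42.2% of control, adjusted p = 0.0324). Both shRNA arrays and replicate 2 of combined cells lay under log2 5, so the sizes of these falls are not well determined. The probe set passed the floor mainly through the control and IKKβ(EE) arrays. Between combined cells and IKKβ(EE) alone the difference was -0.92 ± 0.26 (adjusted p = 0.175, or 0.0515 with the block), and IKKβ(EE) alone against control at -0.33 ± 0.26 (adjusted p = 0.698).

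Ordered by level, ACKR3 was highest in control cells, then with IKKβ(EE), in combined cells and with the shRNA alone, and no step between neighbours in that order was called. The fall in combined cells was -0.82 without control replicate 2 (adjusted p = 0.126) and was also not called without replicate 2 of combined cells (0.160) or either shRNA array (0.0552 and 0.0548). When 1 array was left out, the fall with the shRNA alone was called only where that array was one of combined cells, and its adjusted p reached 0.316 without shRNA replicate 2. Its other two probe sets stayed under log2 5 on every array. On the dimmest the means were 3.08 ± 0.13 in combined cells, 3.36 ± 0.21 with IKKβ(EE), 3.17 ± 0.16 with the CBFA2T3 shRNA and 3.75 ± 0.30 in control cells (SD, n = 2 each). On the remaining one they were 3.48 ± 0.13, 3.63 ± 0.22, 3.44 ± 0.20 and 3.69 ± 0.36 in the same order. When the floor was dropped, the dimmest gave -0.67 in combined cells and -0.58 with the shRNA alone (limma adjusted p = 0.0864 and 0.255). The remaining one gave -0.21 ± 0.20 and -0.24 ± 0.20 (adjusted p = 0.670 and 0.729), and so did not show a clear fall.

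**Figure D2:**
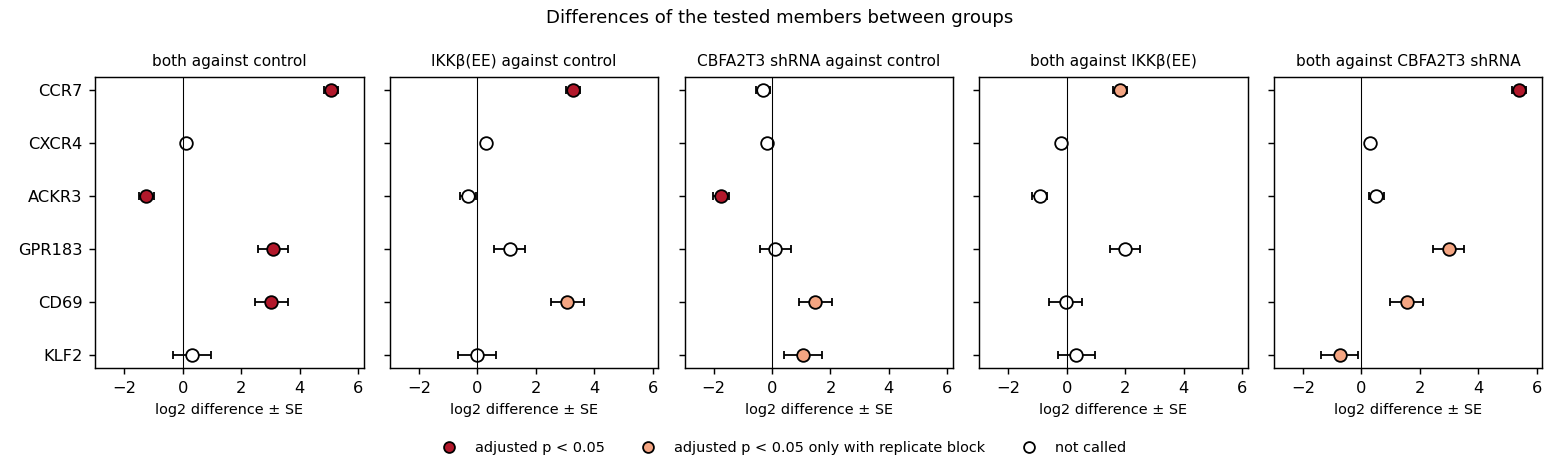
Log2 differences with the SE of the fit for the 6 genes with a tested probe set (the one with the highest mean), in 5 comparisons; dark points were called, pale points only with the replicate block, and open points were not called. CCR7 lies at 5.08 in combined cells against control and ACKR3 at -1.75 with the CBFA2T3 shRNA against control.

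S1PR1, the exit receptor, was near background, between 2.60 and 3.03 in all 8 arrays. No group rose out of background, and a fall could not be seen at that level. GPR183, the oxysterol receptor also known as EBI2, had 1 probe set. Its levels were 5.34 and 7.30 in combined cells, 4.27 and 4.38 with IKKβ(EE), 3.20 and 3.48 with the CBFA2T3 shRNA, and 3.34 and 3.11 in control cells. Only the 2 arrays of combined cells passed log2 5, and they differed from each other by 1.95. GPR183 rose by 3.10 ± 0.52 in combined cells against control (adjusted p = 0.0193). It was tested only because those arrays passed the floor, and with the control level under log2 5 the size of the rise is not well determined. Against shRNA cells the difference was 2.98 ± 0.52 (adjusted p = 0.0587, or 0.0154 with the block), and against IKKβ(EE) alone it was 1.99 ± 0.52 (adjusted p = 0.161, or 0.0529 with the block). IKKβ(EE) alone gave 1.10 ± 0.52 against control (adjusted p = 0.549), with both arrays above the control arrays but under log2 5. The rise in combined cells was not called without control replicate 1 or 2 (adjusted p = 0.0923 and 0.133), and without either array of combined cells the gene did not reach the floor.

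Promoter sequences are given for the called member with a RefSeq entry, GPR183, and for S1PR1, whose transcript stayed near background. The RefSeq table (GRCh38.p14) held 10 promoter windows for 6 of the 9 genes, each covering 250 bases before and 50 after a transcript start. Both strands were searched for the κB consensus, the sequence that NF-κB dimers bind, and for the FOXO motif GTAAACA. Capitals mark a κB match. The first window lies at chr13:99307350-99307649 on the minus strand and the second at chr1:101236769-101237068 on the plus strand.
GPR183: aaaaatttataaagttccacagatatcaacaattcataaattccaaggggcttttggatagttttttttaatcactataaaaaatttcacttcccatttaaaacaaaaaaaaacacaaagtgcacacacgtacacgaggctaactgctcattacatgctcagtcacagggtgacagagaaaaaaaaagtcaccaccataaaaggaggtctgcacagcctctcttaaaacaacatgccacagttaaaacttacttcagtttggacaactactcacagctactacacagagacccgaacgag
S1PR1: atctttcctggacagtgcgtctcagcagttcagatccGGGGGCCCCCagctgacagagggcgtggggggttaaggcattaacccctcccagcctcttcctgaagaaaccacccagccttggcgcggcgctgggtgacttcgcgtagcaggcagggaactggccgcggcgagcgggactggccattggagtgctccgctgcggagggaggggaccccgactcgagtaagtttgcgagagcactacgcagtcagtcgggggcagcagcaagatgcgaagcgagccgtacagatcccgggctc
The S1PR1 window was the only one of the 10 with a κB match. That match is a palindrome at positions -213 to -204 from the start and therefore reads the same on both strands. Over all 35116 promoter windows of this length 11.3% held a κB match and 3.42% a FOXO match, and no member window held the latter. GPR183 had no match to either in these 300 bases, which says only that these letters are not in this window.

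CD69, an early activation marker, had levels of 10.11 and 11.51 in combined cells, 10.34 and 11.37 with IKKβ(EE), 8.79 and 9.74 with the CBFA2T3 shRNA, and 7.35 and 8.21 in control cells. Each array with IKKβ(EE) lay above all arrays without it, and each shRNA array above both control arrays. CD69 rose by 3.03 ± 0.56 in combined cells (8.18-fold, adjusted p = 0.0248), and with IKKβ(EE) alone the difference was 3.07 ± 0.56 (8.43-fold, adjusted p = 0.114, or 0.000155 with the block). With the shRNA alone it was 1.49 ± 0.56 (2.80-fold, adjusted p = 0.253, or 0.00458 with the block). Combined cells stood 1.55 ± 0.56 above shRNA cells (adjusted p = 0.272, or 0.00200 with the block) and -0.04 ± 0.56 from IKKβ(EE) cells (95% confidence interval -1.36 to 1.27). The interaction was -1.53 ± 0.80 (adjusted p = 1.000, or 0.152 with the block). The call in combined cells was lost without control replicate 1 (adjusted p = 0.128), control replicate 2 (0.109) or replicate 2 of combined cells (0.113).

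KLF2, which in mouse T cells drives S1PR1 transcription, was read by its brighter probe set at 7.24 and 8.47 in combined cells, 6.92 and 8.12 with IKKβ(EE), 8.16 and 9.04 with the CBFA2T3 shRNA, and 6.77 and 8.31 in control cells. The arrays of each group lay far apart, and groups overlapped in each of the 5 comparisons between 2 groups. Without pairing KLF2 was called in no comparison. With the block it rose by 1.06 ± 0.15 with the CBFA2T3 shRNA alone (2.08-fold, adjusted p = 0.0119, against 0.479 without the block). It also fell by 0.75 ± 0.15 in combined cells against shRNA cells (adjusted p = 0.0400, against 0.622 without it). Against control it differed by 0.31 in combined cells and by -0.02 with IKKβ(EE) alone, and neither was called with the block (adjusted p = 0.181 and 0.954). Its other probe set lay between 4.21 and 4.61 over the 8 arrays, under the floor, and was not tested in the main fit. When the floor was dropped, that probe set gave -0.23 ± 0.13 with the shRNA alone (limma adjusted p = 0.562). It thus did not show the rise of the brighter probe set, though at a level near background.

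Of the tested members, KLF2 and CD69 were higher in replicate 2 in every group. KLF2 was higher in replicate 2 than in replicate 1 by 1.23 in combined cells, 1.20 with IKKβ(EE), 0.88 with the CBFA2T3 shRNA and 1.54 in control cells. CD69 was higher by 1.40, 1.03, 0.95 and 0.85 in the same 4 groups. A gap at least as large as the smallest of CD69 in all 4 groups was found for 22 of 24481 probe sets (0.0899%), and any gap in this direction in all 4 for 18%. Within replicate number 1 the shRNA cells exceeded control cells by 1.39 for KLF2 and 1.44 for CD69, and within number 2 by 0.73 and 1.53. What the numbers stand for is not given in the labels, and its part in these 2 genes was not tested.

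**Figure D3:**
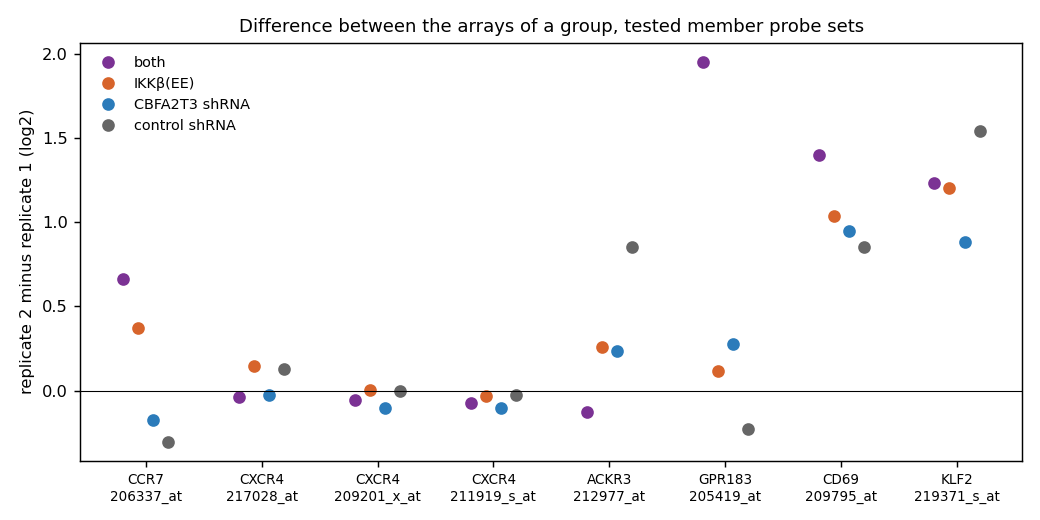
Replicate 2 minus replicate 1 (log2) for the 8 tested member probe sets, with 1 point per group. All 4 points of CD69 and KLF2 lie at 0.85 or higher, those of CXCR4 lie near 0, and GPR183 has 1 point at 1.95, that of combined cells.

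The wider homing system was read from 6 lists with 88 genes, of which 80 had a probe set of their own and 51 were tested (the probe set with the highest mean for each). CCL20, CXCL11, ACKR1 and CCRL2 averaged log2 5 or more only in groups with IKKβ(EE). The counts that follow are therefore a description and lend no weight to the lists. They include RAP1A as higher in combined cells and with IKKβ(EE) alone, although its probe sets disagree. In combined cells 9 of the 51 were called higher and 2 lower against control (4.68% and 3.75% of all tested probe sets), with a median difference of 0.33. These 11 became 2 to 18 when 1 array was left out. With the block 19 were higher and 6 lower, where 11.8% of all tested probe sets were higher and 12% lower. With IKKβ(EE) alone 2 were higher (0.221% of all; 1 to 5 called when 1 array was left out) and 0 lower (12 and 2 with the block, against 2.96% and 0.437% of all). With the CBFA2T3 shRNA alone 1 was higher and 2 were lower, against 0.294% and 0.396% of all (8 and 2 with the block, against 3.98% and 3.74%). Combined cells against shRNA cells had 5 higher (9 with the block; 0.821% and 3.64% of all tested probe sets), and against IKKβ(EE) alone 1 was higher (0.0858% of all), and 6 were higher and 1 lower with the block (2.18% and 2.39%).

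Of the 3 tested ligand and ligand-making genes 2 rose in combined cells. CXCL11, a ligand of CXCR3 and ACKR3, averaged 8.10 in combined cells and 8.03 with IKKβ(EE), against 2.94 with the shRNA and 2.64 in control cells. Its rise was 5.46 ± 0.26 in combined cells (adjusted p = 0.000185) and 5.39 ± 0.26 with IKKβ(EE) alone, in both cases against a level under log2 5. CCL20, the ligand of CCR6, averaged 6.83 in combined cells, 3.97 with IKKβ(EE), 4.15 with the shRNA and 3.41 in control cells. CCL20 rose by 3.42 ± 0.29 against control (adjusted p = 0.00232) and by 2.86 ± 0.29 against IKKβ(EE) alone (adjusted p = 0.0253), and both of those groups were under log2 5. It was the only gene of the 51 called in combined cells against IKKβ(EE) alone.

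Among 4 tested receptors outside the 9, ACKR1, the Duffy antigen that binds chemokines without signalling, rose by 1.69 ± 0.23 in combined cells (adjusted p = 0.0104). CCRL2, a non-signalling chemerin-binding receptor, rose by 0.94 ± 0.20 (adjusted p = 0.0324), and both had control means under log2 5. Of 7 tested sphingosine-1-phosphate genes 1 was called: S1PR3, another receptor for this lipid, averaged 7.81 in combined cells, 6.88 with IKKβ(EE), 5.43 with the shRNA and 5.26 in control cells. It rose by 2.55 ± 0.35 in combined cells (adjusted p = 0.0104) on the brighter of its 2 probe sets, while the other gave -0.19 (adjusted p = 0.544).

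Of 12 tested desensitisation genes RGS16, which shortens G protein signals, rose by 2.38 ± 0.53 in combined cells (adjusted p = 0.0387) on its brightest probe set, while another gave 2.01 and was not called (adjusted p = 0.0515). The difference with IKKβ(EE) alone was 2.51 ± 0.53, called only with the block (adjusted p = 0.162 without it and 0.00290 with it). Of 16 tested migration signalling genes RASSF5 (RAPL), the RAP1 effector that activates integrins after chemokine signals, fell by 1.94 ± 0.26 in combined cells (adjusted p = 0.00888) and by 1.88 ± 0.26 with the shRNA alone (adjusted p = 0.0353). Its dimmer probe set gave -1.48 (adjusted p = 0.0276) and -1.57 (adjusted p = 0.0619, not called). PREX1, an exchange factor for Rac, fell by 1.27 ± 0.15 and 1.75 ± 0.15 in the same comparisons (adjusted p = 0.00691 and 0.0252). CORO1A, an actin regulator of lymphocytes, rose by 0.81 ± 0.12 with the shRNA alone (adjusted p = 0.0441).

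RAP1A, a small GTPase, rose by 2.92 ± 0.32 in combined cells on the brightest probe set (adjusted p = 0.00478), and its 4 tested probe sets disagreed. On the other three it rose by 3.63, differed by 0.40 (adjusted p = 0.168) and fell by 0.96 (adjusted p = 0.0146), so no direction is given for the gene. With IKKβ(EE) alone the brightest rose by 2.70 (adjusted p = 0.0278). There the others gave 3.10 (adjusted p = 0.0171), 0.28 (0.609) and -0.21 (0.668). Of 9 tested positioning receptors and factors PTGER4, a prostaglandin E2 receptor, rose by 3.26 ± 0.55 in combined cells (adjusted p = 0.0194). Its difference was 2.71 ± 0.55 with IKKβ(EE) alone and 2.00 ± 0.55 with the shRNA alone, called only with the block (adjusted p = 0.000387 and 0.00343). Its dimmer probe set gave 0.42 in combined cells (adjusted p = 0.0980). KLF6, a relative of KLF2, rose by 1.80 ± 0.41 in combined cells (adjusted p = 0.0398), and all 4 of its tested probe sets were called.

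**Figure D4:**
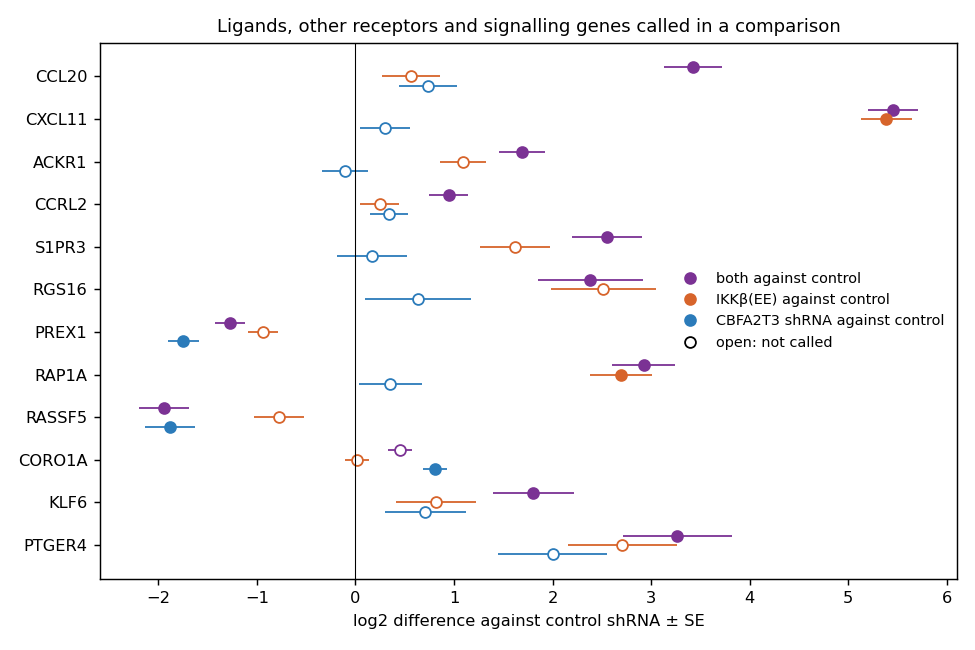
Log2 difference against control cells, with the SE of the fit, for the 12 listed genes called in at least 1 of the 6 comparisons; filled points were called. CXCL11 lies at 5.46 in combined cells and 5.39 with IKKβ(EE), CCL20 at 3.42 in combined cells, its only filled point, and RASSF5 and PREX1 lie under 0 in all 3 groups.

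Genes with the most similar profiles were found by the root mean square difference of log2 values after each gene was centred on its mean over the 8 arrays. For CCR7 they were NR2F1-AS1 (0.19) and TNFRSF9 (0.46), for GPR183 MS4A1 (0.27) and DUSP4 (0.29), for CD69 CMAHP (0.19) and MS4A7 (0.29), and for ACKR3 PPP3CA (0.22) and ADAM9 (0.24). NR2F1-AS1 averaged 9.69 in combined cells, 7.82 with IKKβ(EE), 4.41 with the shRNA and 4.85 in control cells, the order seen for CCR7. PPP3CA, which like ACKR3 was lowest with the shRNA alone, averaged 8.59 in combined cells, 9.70 with IKKβ(EE), 8.23 with the shRNA and 9.72 in control cells.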

How the data were processed

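Per the submitters' processing notes the authors made the deposited log2 values with RMA, which corrects background, brings arrays to a common distribution and summarises probes; neither its version nor the chip definition is named in those notes. The maximum of 14.6 exceeds what a natural log of scanner values could reach (11.1), so the values were read as log2. Of 54675 probe sets, 62 were Affymetrix controls and 30132 fell short of the floor. The platform table pairs 41097 probe sets with just 1 symbol, 1801 with several, which are not named here, and 11777 with none.

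The remaining 24481 entered a limma model (3.58.1, R 4.3.3) that gave each group its mean and pooled the spread over all 4 groups, on 4 residual and 3.54 prior degrees of freedom. Tests were two-sided. Precision is limited by the number of arrays: by exact permutation, 2 against 2 could reach no p below 0.333. Replicate differences correlated in all 6 pairs of groups (0.34 to 0.58), so equal numbers were taken to pair arrays and a fit with the replicate block is given beside the members and targeted genes where it changed a call. No label names a shared batch or day, so that pairing is read from the values alone. P-values rest on the spread between the 2 cultures of a group, pooled over the 4 groups and moderated over all tested probe sets. With the block they rest on what remains of that spread once a shift common to equal replicate numbers is removed.

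The members, lists, tests and alternatives were chosen with earlier results of these data known. Named were all 9 members, the 2 targeted genes, up to 4 called genes per list, and the 2 genes most alike each called member. The fit was tested on simulated data. Alternatives were other floors, moderation, array weights, cyclic loess, 1 probe set per gene, the 2 groups alone, the replicate block and leaving out each array. Differences within replicate numbers were added after seeing the data. No coordinates other than the promoter windows are given, since no build is named for the files.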

Additional observations from a re-analysis of the deposited data

Results flagged for a closer look

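The CCR7 arrays with the CBFA2T3 shRNA were placed in opposite ways without and with IKKβ(EE). Both shRNA arrays lay below both control arrays, and both arrays of combined cells lay above both arrays with IKKβ(EE) alone. The interaction was 2.13 ± 0.34 (log2, limma adjusted p = 0.563). The first of these differences lies near background (means of 3.56 with the shRNA and 3.87 in control cells). The same pattern of arrays was found in 435 of 24481 tested probe sets (1.78%).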

How the results depend on the processing

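The number of arrays and the dimness of CCR7, GPR183 and ACKR3 in some groups limit these results. Called member probe sets numbered 4 in combined cells against control in the main result, and 2 when only the 2 groups were compared (CCR7 and CD69). With the replicate block there were 2 with IKKβ(EE) (1 without the block), 3 with the shRNA (1), 1 in combined cells against IKKβ(EE) (0) and 4 in combined cells against shRNA cells (1). Combined cells against IKKβ(EE) also had 1 with no floor, with trend and robust moderation or with 1 probe set per gene, and combined cells against shRNA cells had 2 with no floor, trend and robust moderation or array weights. The other counts stayed within 1.5 times. The interaction had 0 calls throughout (limma, unadjusted p under 0.05 for 2 of 8), and combined cells against IKKβ(EE) had 3 of 8 at that level. Leaving out 1 array gave 1 to 4 calls in combined cells against control, 0 to 2 with IKKβ(EE), 0 to 1 with the shRNA, 0 to 1 against IKKβ(EE), 1 to 1 against shRNA cells and 0 to 0 for the interaction.

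All probe sets called numbered 5810 in combined cells with the block (2064 without), 831 with IKKβ(EE) (56), 1890 with the shRNA (169), 1117 against IKKβ(EE) (35) and 1244 against shRNA cells (211). CCR7 in combined cells against control was called under all 16 alternatives. No called difference changed its sign. With cyclic loess 2 uncalled ones did, the CXCR4 interaction on the brightest probe set (-0.029) and KLF2 with IKKβ(EE) (0.0094). Leaving out 1 array moved uncalled differences across 0 in 10 cases. These were the CXCR4 interaction on the brightest probe set (-0.070 to 0.075), CXCR4 in combined cells against control on the other two (-0.0099 to 0.047 and -0.017 to 0.058), ACKR3 with IKKβ(EE) (-0.75 to 0.099), GPR183 with the shRNA (-0.025 to 0.25), CD69 against IKKβ(EE) (-0.74 to 0.66), and KLF2 in combined cells against control (-0.46 to 1.08), with IKKβ(EE) (-0.79 to 0.75), against IKKβ(EE) (-0.28 to 0.95) and in the interaction (-1.497 to 0.046). The cause was not tested.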
